A study of Mus musculus with 6 samples.

Results

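The genes that encode the proteins of the cytosolic ribosome were examined in RNA from mouse splenic B lymphocytes. A gene was taken as a member when its symbol was Rpl or Rps followed by a digit, or was Rplp0, Rplp1, Rplp2 or Rpsa. The S6 kinases, symbols marked as pseudogenes and genes of binding proteins were left out. This rule found 87 of the 16511 genes in the table, and it used no measured value. By symbol, 78 of these were counted as standard members, 46 in the large and 32 in the small subunit, the latter with Rps23rg1, a retroposed copy of Rps23 that was not tested. The other 9 have a paralogue-type symbol (Rpl3l, Rpl7l1, Rpl22l1, Rpl32l, Rpl36al, Rpl37rt, Rpl39l, Rps27l and Rps27rt).

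The series compared 3 libraries labelled GPR40-WT with 3 labelled GPR40-KO. GPR40 is a receptor for long-chain fatty acids and is encoded by Ffar1. B cells were taken from spleen by magnetic removal of other cells, and their poly(A) RNA was sequenced, per the labels' protocols. Strain, age, sex and the allele are not given in the labels, and the genotype is written GPR40-KO for the samples but GPR40-BKO in the text on the series' design, which does not name a driver of a B cell deletion. The labels number the replicates without saying that they came from separate animals. Every p-value below therefore sets the difference between labels against differences between these libraries, which may be partly technical.

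Each cytosolic ribosome is built from a small subunit, which reads the mRNA, and a large subunit, which joins amino acids. Their proteins are needed in near equal numbers, and in mammals most of their mRNAs begin with a stretch of pyrimidines (C and T), the terminal oligopyrimidine or TOP motif. Through this motif the kinase mTORC1 and the RNA-binding protein Larp1 control how strongly these mRNAs are translated and how long they are kept. Resting B cells are small and raise ribosome production when they are activated.

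The annotated start sites of the genes on which the results turn are shown here because the TOP motif lies at the first transcribed base. Each line holds 15 bases before and 15 bases from a start listed in the RefSeq promoter table (GRCm38.p6, written 5′ to 3′ along the gene), and capitals mark the longest run of C and T. The first 5 genes have the smallest p-values among the members, Rps27 has the highest level per length of all genes in the table, and Rpl22l1 and Rps27l are the members with the most negative log2 fold change.
Rpl12, chr2:32961697-32961726, plus strand: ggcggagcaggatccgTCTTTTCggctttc
Rpl38, chr11:114668565-114668594, plus strand: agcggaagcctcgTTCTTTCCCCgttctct
Rpl4, chr9:64173372-64173401, plus strand: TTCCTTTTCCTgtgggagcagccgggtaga
Rpsa, chr9:120127751-120127780, plus strand: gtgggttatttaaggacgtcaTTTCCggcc
Rps21 (first of 2 listed starts), chr2:180257364-180257393, plus strand: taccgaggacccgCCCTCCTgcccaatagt
Rps27, chr3:90213634-90213663, minus strand: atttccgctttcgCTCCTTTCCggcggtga
Rpl22l1, chr3:28805493-28805522, plus strand: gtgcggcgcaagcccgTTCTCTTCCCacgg
Rps27l (first of 2 listed starts), chr9:66946071-66946100, plus strand: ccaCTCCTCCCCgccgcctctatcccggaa

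For Rpl38 and Rps27l the listed start lies inside the annotated gene, downstream of its first base. The run lies across or within 2 bases of the start in Rpl12, Rpl38, Rps21, Rps27 and Rpl22l1, and elsewhere in the window in Rpl4, Rpsa and Rps27l. RefSeq promoter windows were found for 67 of the 87 members, 79 windows in all, because a gene can have more than 1 start. A run of at least 8 bases of C and T on the gene's strand was present in 38.0% of the members' 30-base windows and in 12.0% of all 32851 windows. The median of the longest run was 6 bases for members and 4 for all windows. In the full windows, from 250 bases before to 50 bases after the start, the letters CCGGAAG (an ETS-type motif) were found on either strand in 34.2% of member windows and 8.86% of all. ATGGCGG (a YY1-type motif) was found in 17.7% and 4.06%, and TCTCGCGA, a palindromic motif of housekeeping promoters, in 15.2% and 0.995%. GGGCGG (an Sp1-type motif) was found in 57.0% and 35.7%, and TATAAA in 10.1% and 13.6%. A run of C and T can overlap the reverse of CCGGAAG. These are matches of letters only and say nothing of binding or of translation.

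The library totals lay between 14907080 and 15461425 estimated counts. Ffar1 went against the labels: its counts were 0 in all 3 libraries labelled WT and 273, 392 and 304 in those labelled KO, at least 109-fold higher against a floor of 3 counts per library (edgeR's quasi-likelihood test, adjusted p = 2.07e-04). The position of the deleted part is not given, so the groups are called by their labels throughout. Whether the labels were exchanged cannot be settled from these files, and an exchange would turn every direction given below. Markers of several cell types also moved with the labels. The summed level of 9 B cell markers was 5112 to 7655 CPM (counts scaled to library size) in the libraries labelled WT. It was 10401 to 11373 CPM in those labelled KO. Of the 9, 4 were called higher, and with the replicate number as a block 5 were higher and 1 lower. Their log2 fold changes were uneven, from -0.51 to 4.46 with a median of 0.35 and 1 below 0. The 9 neutrophil markers summed to 596 to 5695 CPM against 92.9 to 205, all 9 without overlap between the groups and none called (4 lower with the replicate number as a block), and the 9 monocyte and macrophage markers to 2157 to 5525 against 954 to 1749, with 1 of 9 called lower (8 with the block). Dendritic cell markers summed to 92.8 to 132 CPM against 36.1 to 57.9 CPM, with 2 of 5 tested called lower (4 with the block), and the sums of NK cell and of platelet markers were also lower without overlap. The 8 erythroid markers reached 8181 CPM in WT replicate 3 alone, and no marker of the B cell, neutrophil, monocyte and erythroid lists was at 0 in every library of a group. Their part in the results below was not tested, and in bulk RNA fewer cells of a type and less RNA per cell cannot be told apart.

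Ribosomal protein mRNAs took a larger share of the RNA in each library labelled KO than in any labelled WT. The 87 members held 5.64%, 6.50% and 5.68% of the estimated counts in WT replicates 1, 2 and 3, and 6.58%, 6.71% and 7.62% in KO replicates 1, 2 and 3. The groups did not overlap, but WT replicate 2 lay close to the lowest library labelled KO, and KO replicate 3 stood above all others. The means were 5.94% ± 0.480 (SD, n = 3) and 6.97% ± 0.565 (SD, n = 3), and an exact two-sided permutation test gave p = 0.1, the smallest that 3 libraries against 3 allow. On the TPM scale, which divides by transcript length, the share was 24.3%, 28.6% and 24.6% against 29.0%, 30.2% and 31.4% (exact permutation p = 0.1).

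The share of mRNAs for the mitochondrial ribosome, a separate machine whose proteins are also made in the cytosol, overlapped between the labels. Their 78 genes held 0.156%, 0.165% and 0.165% of counts in the libraries labelled WT and 0.158%, 0.156% and 0.177% in those labelled KO (exact permutation p = 0.8). The ratio of cytosolic to mitochondrial ribosomal protein counts was 36.3, 39.2 and 34.5 in the libraries labelled WT and 41.5, 42.9 and 42.9 in those labelled KO. This ratio did not overlap between the labels either, with means of 36.7 ± 2.39 and 42.4 ± 0.813 (SD, n = 3 each, exact permutation p = 0.1, the smallest possible). Its difference was 4.68 to 7.04 when each library was left out in turn.

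**Figure D1:**
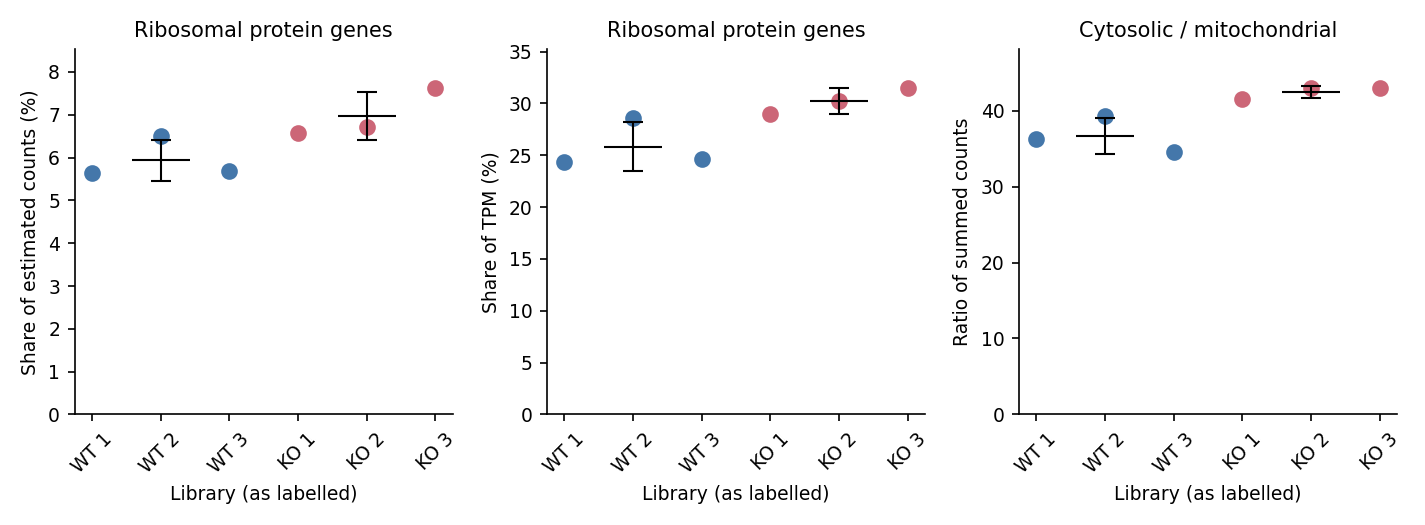
Share of estimated counts (left) and of TPM (middle) held by the 87 cytosolic ribosomal protein genes, and the ratio of their summed counts to those of 78 mitochondrial ribosomal protein genes (right), in each library. Points are libraries, black bars the mean ± SD of 3, and on each panel the 3 libraries labelled KO lie above the 3 labelled WT.

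Gene by gene, most members had small positive log2 fold changes in the libraries labelled KO, and few passed the test. After the filter on low counts, 84 of the 87 members were tested among 12234 genes. Rpl12, Rpl38, Rpl4 and Rpsa were higher at an adjusted p under 0.05, which is 4.76% of the tested members against 4.55% of all tested genes, so the share of members called was near the background. None was lower in edgeR's test, against 4.81% of all genes. In that test 1 member was lower at an unadjusted p under 0.05 and 38 were higher (15.3% and 13% of all genes). DESeq2 called no member lower and 25 higher, against 1391 and 855 of all 12234 genes. With the replicate number as a block, 18 members were higher (21.4%, against 7.96% of all genes) and 1, Rps27l, was lower (12.8% of all genes). The block was chosen over all genes. Among the members alone, deviations of same-numbered libraries correlated at r = -0.42, -0.08 and 0.01. The count of 4 rests on the libraries used: it was 0 without WT replicate 3, KO replicate 1 or KO replicate 2, 1 without WT replicate 1, 2 without KO replicate 3 and 27 without WT replicate 2. The share of all genes called higher moved as well, to 2.16%, 1.56%, 1.34%, 2.95%, 3.09% and 6.62% in the same order.

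The log2 fold changes, KO minus WT, were above 0 for 82 of the 84 tested members, against 51.5% of all genes. Their median was 0.24 with quartiles of 0.19 and 0.29, where all genes had a median of 0.01 and quartiles of -0.27 and 0.20. For 43 members, 51.2% of those tested, the 3 libraries labelled KO lay above the 3 labelled WT without overlap, against 17.5% of all genes, and for 1 they lay below, against 15.9%. The members varied together between libraries, so these counts are not 84 separate observations: of 81 members with a mean over 10 CPM in the libraries labelled WT, 62 had a Pearson r above 0.9 with the members' median profile over the 6 libraries. KO replicate 3 held the highest level of 78 of the 84 members, and WT replicates 1 and 3 the lowest of 34 and 41. Leaving out WT replicate 1 and KO replicate 3 together, a choice made because these stand at the ends, gave a median of 0.12.

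**Figure D2:**
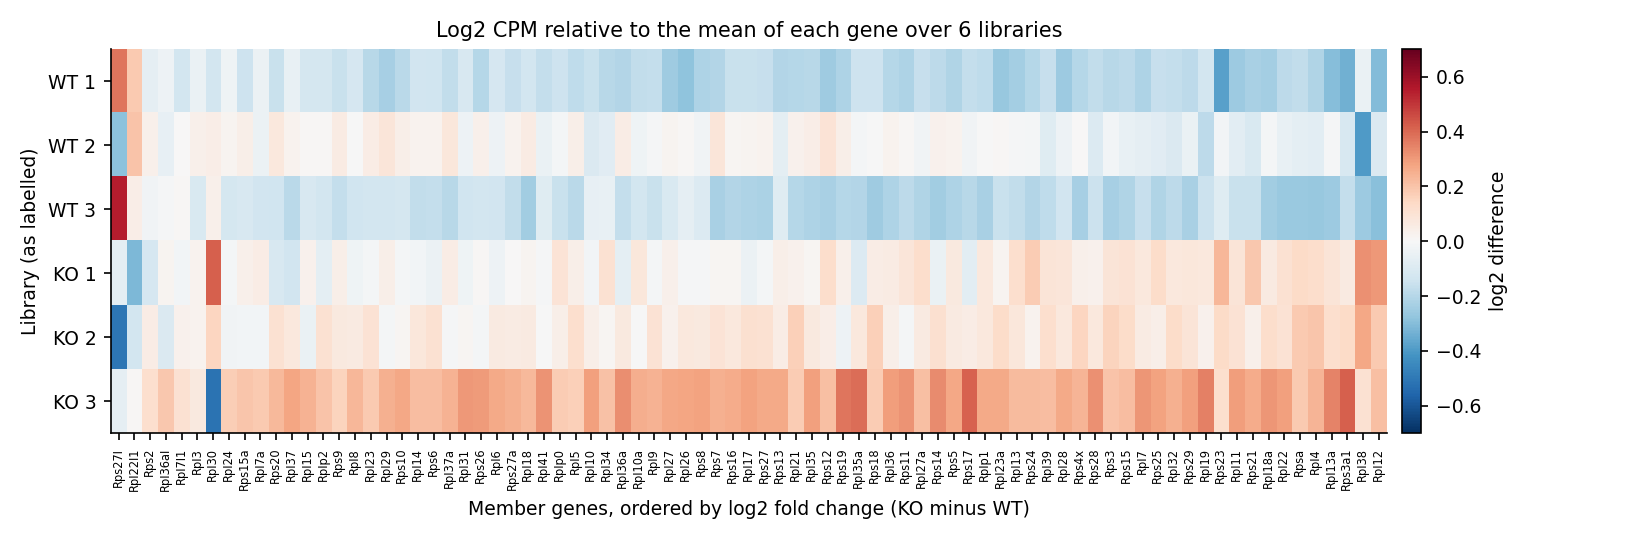
Log2 CPM of each member relative to its own mean over 6 libraries, one column per gene ordered by log2 fold change and one line per library (Rpl32l, Rpl37rt and Rps27rt, with few counts, are not drawn). Red is above and blue below the gene's mean; KO replicate 3 is red in most columns, WT replicates 1 and 3 are blue, and Rps27l and Rpl22l1 at the left run the other way.

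The first of the 4 called members, Rpl12, lies at the base of the stalk where elongation factors bind, and its gene is at chr2:32961712-32964045. Its level was 1081, 1245 and 1091 CPM in WT replicates 1, 2 and 3 and 1649, 1519 and 1549 CPM in KO replicates 1, 2 and 3. The groups were well apart, with every library labelled KO above the highest labelled WT. The log2 fold change was 0.47 ± 0.09 (SE, adjusted p = 0.0208). Some of its reads were shared with other genes by the authors' counting, seen as counts that were not whole in 2 libraries.

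Rpl38, known in mouse embryos for its role in translating Hox mRNAs, is at chr11:114667818-114672333. Its level was 122, 95.7 and 105 CPM in the libraries labelled WT and 158, 152 and 136 CPM in those labelled KO. Here KO replicate 3 was the lowest of its group, unlike most members, and the groups did not overlap (log2 fold change 0.46 ± 0.11 SE, adjusted p = 0.0367). Rpl4, a protein that lines the exit tunnel of the large subunit, is at chr9:64173387-64178562. It measured 1461, 1607 and 1411 CPM against 1844, 1936 and 1997 CPM, without overlap and with a log2 fold change of 0.37 ± 0.09 (SE, adjusted p = 0.0382).

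Rpsa, the small-subunit protein also known as the laminin receptor precursor, is at chr9:120127766-120132369; in humans, mutations in this gene cause absence of the spleen at birth. It measured 1625, 1749 and 1531 CPM in the libraries labelled WT and 2014, 2079 and 2085 CPM in those labelled KO. The groups were apart, and the log2 fold change was 0.33 ± 0.08 (SE, adjusted p = 0.0456). None of the 4 calls held in every alternative, though the direction was the same in all of them. The largest adjusted p was 0.0998 for Rpl12, 0.136 for Rpl38, 0.170 for Rpl4 and 0.199 for Rpsa, each with 1 or more libraries left out. Of 18 alternatives, the call was lost in 5 for Rpl12 and for Rpl38, 10 for Rpl4 and 12 for Rpsa. With all libraries kept, Rpl38, Rpl4 and Rpsa lost it on log2 TPM. Rpl4 and Rpsa also lost it with library totals alone or no filter, and Rpsa with 2 other scalings.

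**Figure D3:**
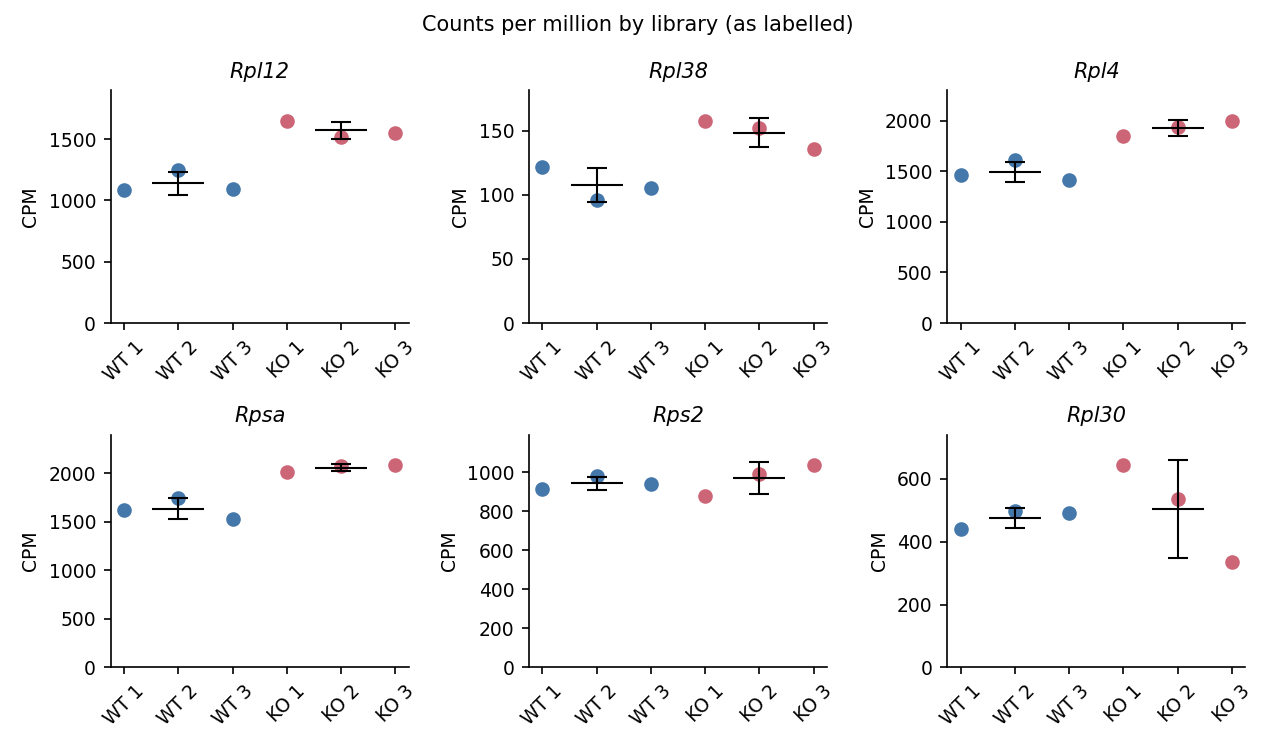
Level of 6 members in CPM by library, with the 3 libraries labelled WT in blue, the 3 labelled KO in red and black bars for the mean ± SD. Rpl12, Rpl38, Rpl4 and Rpsa do not overlap between the labels, Rps2 overlaps, and Rpl30 spans 336 to 644 CPM within the libraries labelled KO.

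The next members by p-value missed the threshold narrowly. Rps21, a small-subunit protein, measured 314, 342 and 331 CPM against 420, 378 and 442 CPM (log2 fold change 0.33, adjusted p = 0.0523, and 0.0273 with the replicate block). Rpl32 of the large subunit measured 474, 495 and 468 CPM against 560, 581 and 634 CPM (log2 fold change 0.30, adjusted p = 0.0537, and 0.0302 with the block). Both were without overlap between the labels, as was Rps15, whose adjusted p was 0.0630, and 0.0367 with the block. Rps3a1, named after its values were seen, had a log2 fold change of 0.41 with an adjusted p of 0.0609, and of 0.0135 with the block.

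The 2 subunits gave like values. All 46 standard large-subunit genes had a log2 fold change above 0, with 3 called and a median of 0.22. All 31 tested standard small-subunit genes did too, with 1 called and a median of 0.26. With the block, 10 large- and 8 small-subunit genes were higher. The ratio of summed large- to small-subunit TPM was 1.05, 1.01 and 1.05 in the libraries labelled WT and 1.05, 1.04 and 1.02 in those labelled KO (exact permutation p = 1). The balance between the subunits thus differed by less than the spread between libraries.

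Levels per length differed far more between members than between labels. Rps27 was the gene of highest mean TPM in the whole table, at 21100, 26412 and 21262 TPM in the libraries labelled WT and 24136, 26902 and 27596 TPM in those labelled KO. Its groups overlapped, and its log2 fold change in counts was 0.24 (adjusted p = 0.179); part of its reads was shared with similar sequences. Rps15, Rps14, Rps18 and Rpl12 followed among the members, with mean levels of 7974, 7137, 6696 and 6587 TPM and ranks of 4, 7, 8 and 9 among all genes. At the other end, Rpl37rt, Rps27rt and Rpl32l had mean levels of 5.96, 13.8 and 22.0 TPM. Their log2 fold changes of 0.66 ± 0.67, 0.58 ± 1.08 and 0.38 ± 0.42 (SE) rest on few counts, from 0 to 21.9 in Rps27rt, and did not pass the test; that of Rps27rt was below 0 on the TPM scale. Rpl3l, Rpl39l and Rps23rg1 did not pass the filter on low counts. Rpl3l, known from striated muscle, had 2, 0 and 17 counts in the libraries labelled WT and 4, 1 and 37 in those labelled KO.

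The stalk, an arm of the large subunit made of Rplp0, Rplp1 and Rplp2, recruits the elongation factors. Rplp0 measured 1761, 1930 and 1753 CPM in the libraries labelled WT and 2080, 2008 and 2207 CPM in those labelled KO. Rplp1 measured 417, 472 and 403 CPM against 498, 497 and 567 CPM. Rplp2 measured 440, 482 and 439 CPM against 456, 516 and 549 CPM. Rplp0 and Rplp1 did not overlap between the labels, while in Rplp2 KO replicate 1 lay below WT replicate 2. None of the 3 passed the test, with log2 fold changes of 0.21, 0.27 and 0.16 and adjusted p-values of 0.150, 0.107 and 0.303.

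Several members have roles outside the ribosome. Rpl5 and Rpl11, which with 5S rRNA bind Mdm2 and so stabilise p53, had log2 fold changes of 0.21 (adjusted p = 0.177) and 0.33 (adjusted p = 0.0615, and 0.0255 with the block). Rpl11 measured 466, 527 and 498 CPM against 592, 597 and 682 CPM, without overlap. Rpl13a, part of a complex that represses inflammatory mRNAs in human myeloid cells, measured 1600, 1958 and 1648 CPM against 2098, 2134 and 2507 CPM. It too was without overlap, with a log2 fold change of 0.37 (adjusted p = 0.0761, and 0.0334 with the block). Rps3, which also acts in DNA repair and as a partner of NF-kB, had a log2 fold change of 0.29 (adjusted p = 0.0754, and 0.0383 with the block).

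Rps6, the substrate of the S6 kinases, measured 1225, 1374 and 1205 CPM against 1315, 1453 and 1571 CPM. Its groups overlapped (log2 fold change 0.19, adjusted p = 0.248). Rps14 and Rps19, whose loss impairs red cell formation in humans, had log2 fold changes of 0.27 and 0.26 with adjusted p-values of 0.186 and 0.231. Rps27a, made as a fusion with ubiquitin, and Rpl41, the smallest ribosomal protein, had values of 0.20 and 0.21 with adjusted p-values of 0.219 and 0.242. None of these 5 passed with the block either.

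The standard members with the smallest fold changes were Rps2, Rpl3, Rpl30 and Rpl24, of which the last 2 are named after their values were seen. Rps2, at the mRNA entry site, measured 914, 979 and 938 CPM against 880, 992 and 1036 CPM, with the lowest and the highest value both in libraries labelled KO (log2 fold change 0.04, adjusted p = 0.815). Rpl3, near the peptidyl transferase centre, measured 1097, 1160 and 1051 CPM against 1155, 1155 and 1191 CPM (log2 fold change 0.08, adjusted p = 0.541). Rpl24 gave 0.09 (adjusted p = 0.538).

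Rpl30 differed from most other members in the order of its libraries. In yeast this protein controls the splicing of its own mRNA. It measured 440, 497 and 493 CPM in the libraries labelled WT and 644, 535 and 336 CPM in those labelled KO. KO replicate 3, where 78 members had their highest level, was the lowest library for Rpl30, and its r with the members' median profile was -0.35. The log2 fold change was 0.08 ± 0.23 (SE, adjusted p = 0.850). Its main transcript made up 96.5% ± 0.756 of its counts in the libraries labelled WT and 96.5% ± 0.490 in those labelled KO (SD, n = 3 each), and 96.1% in KO replicate 3.

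Some paralogues of ribosomal proteins had ratios to their parents that differed between the labels. Rpl22l1, the paralogue of Rpl22 that in mouse is held down by Rpl22, was the 1 member with every library labelled KO below every one labelled WT, at 63.4, 64.0 and 57.6 CPM against 44.7, 50.9 and 56.1 CPM. Its log2 fold change of -0.29 ± 0.11 (SE) did not pass the test (adjusted p = 0.128, and 0.105 with the block). Rpl22, needed for T cell development in mouse, measured 210, 230 and 199 CPM against 257, 256 and 291 CPM, without overlap (log2 fold change 0.33, adjusted p = 0.0567, and 0.0329 with the block). Per 100 counts of Rpl22 there were 30.2, 27.9 and 29.0 counts of Rpl22l1 in the libraries labelled WT and 17.4, 19.9 and 19.3 in those labelled KO.

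The Rpl22l1 ratio was thus apart by more than its spread, with means of 29.0 ± 1.17 and 18.9 ± 1.30 (SD, n = 3 each). An exact permutation test gave p = 0.1, the smallest possible, and 0.2 when adjusted over the 4 pairs. Leaving out each library in turn gave differences of -10.8 to -9.45 counts per 100.

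Rps27l, a p53-induced paralogue of Rps27, measured 30.5, 19.1 and 34.5 CPM against 22.3, 16.3 and 22.4 CPM. The groups overlapped, and its log2 fold change of -0.46 ± 0.24 (SE) had an adjusted p of 0.244, and of 0.0464 with the block. Per 100 counts of Rps27 there were 3.40, 1.86 and 4.01 against 2.24, 1.51 and 1.86 (exact permutation p = 0.2). In both groups the libraries with the most Rps27l were replicates 1 and 3. Rpl7l1, a paralogue of Rpl7, gave 6.89, 6.79 and 7.29 per 100 counts of Rpl7 against 6.08, 6.37 and 5.63, without overlap (exact permutation p = 0.1, adjusted 0.2). Its own level gave a log2 fold change of 0.08 (adjusted p = 0.553), and that of Rpl7 0.30 (adjusted p = 0.0913). Rpl36al per 100 counts of Rpl36a overlapped between the labels, with means of 57.2 ± 6.06 and 51.7 ± 5.19 (SD, n = 3 each, exact permutation p = 0.2).

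**Figure D4:**
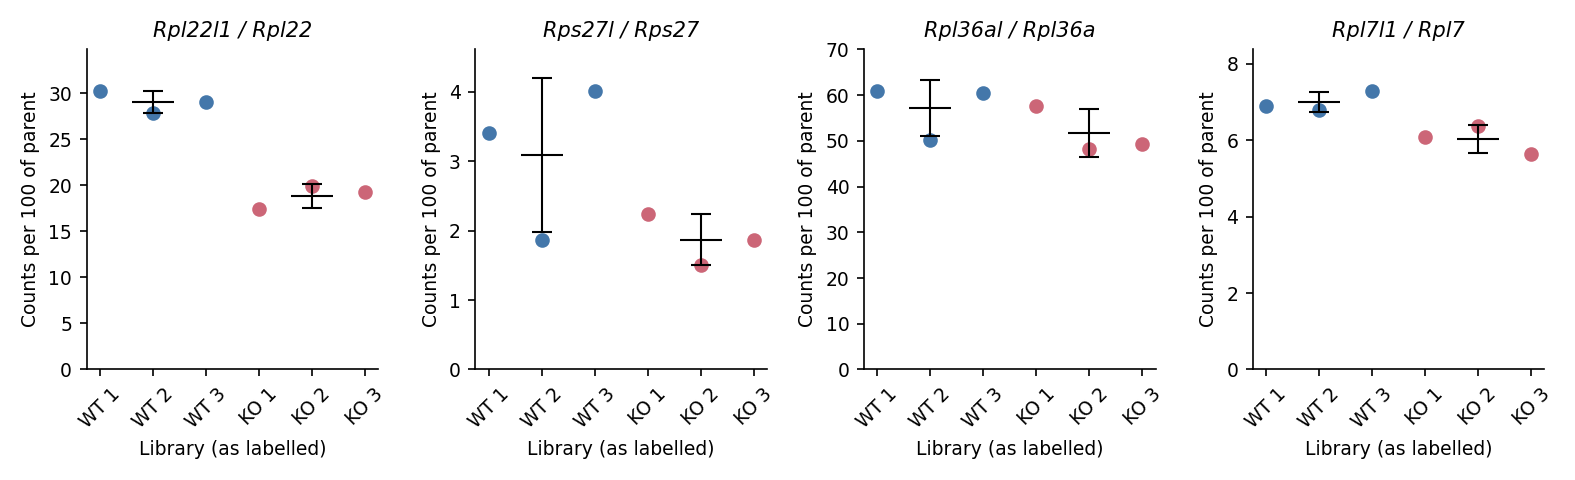
Counts of 4 paralogues per 100 counts of their parent gene in each library (blue, labelled WT; red, labelled KO; black bars, mean ± SD of 3). Rpl22l1 lies at 27.9 to 30.2 against 17.4 to 19.9, Rpl7l1 is also without overlap, and Rps27l and Rpl36al overlap.

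At the level of transcripts, 150 belonged to the members and 126 of these were tested among 31150. None was called in edgeR's test, against 0.154% of all transcripts. At an unadjusted p under 0.05 there were 36, all of them higher in the libraries labelled KO, which is to be read against 10.3% of all transcripts in either direction, and DESeq2 called 20, against 8.45% of all transcripts. Among the 29 members with at least 2 tested transcripts, the largest difference in a transcript's share of its gene was in Rpl22l1. Its main transcript made up 75.1% ± 2.96 of the gene's counts in the libraries labelled WT and 71.8% ± 4.90 in those labelled KO (SD, n = 3 each, exact permutation p = 0.4). Rps24, which has alternative last exons, had 1 minor transcript at 0.567% to 0.996% of its counts in 5 libraries and at 2.00% in KO replicate 3.

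The members lie on 19 chromosomes. Chromosome 7, which also holds Ffar1, carries 14 of them, and 4 are on X (Rps4x, Rpl10, Rpl39 and Rpl36a). Rps4x and Rpl39 gave log2 fold changes of 0.28 each (adjusted p = 0.106 and 0.0539, the latter 0.0330 with the block), Rpl10 of 0.21 and Rpl36a of 0.22 (adjusted p = 0.203 and 0.267). All 4 X-linked members thus lay between the members' quartiles of 0.19 and 0.29.

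Other mRNAs taken to have a TOP motif, whose start sites were not examined here, had log2 fold changes like those of the members. Of 21 tested, 20 were above 0, with a median of 0.20, and 13 were without overlap (61.9%, against 17.5% of all genes). Nap1l1, a histone chaperone, measured 309, 301 and 307 CPM against 525, 528 and 526 CPM, with a very narrow spread in each group. Its log2 fold change was 0.78 ± 0.07 (SE, adjusted p = 7.15e-04), larger than that of any called member. Eef2, the factor that moves the ribosome along the mRNA, measured 3474, 3658 and 3409 CPM against 4370, 4679 and 4275 CPM (log2 fold change 0.34, adjusted p = 0.0428). Eef1b2 and Eif3h rose by 0.32 each (adjusted p = 0.0488 and 0.0491). These 4 were the called genes of the list (19.0%, against 4.55% of all genes). With the block 8 were higher (38.1%, against 7.96% of all genes). With each library left out in turn 1 to 7 were higher, and the share of all genes was 1.34% to 6.62%. Eef2, Eef1b2 and Eif3h also lost the call with all libraries kept, under RLE factors or library totals alone, and Nap1l1 kept it.

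Fau, made as a fusion that releases Rps30, and Rack1, which sits on the small subunit, also go with the ribosome under other symbols. Their log2 fold changes were 0.40 and 0.26, both without overlap, and neither passed the test (adjusted p = 0.0526 and 0.0876). With the block Fau passed (0.0281) and Rack1 did not (0.0568).

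**Figure D5:**
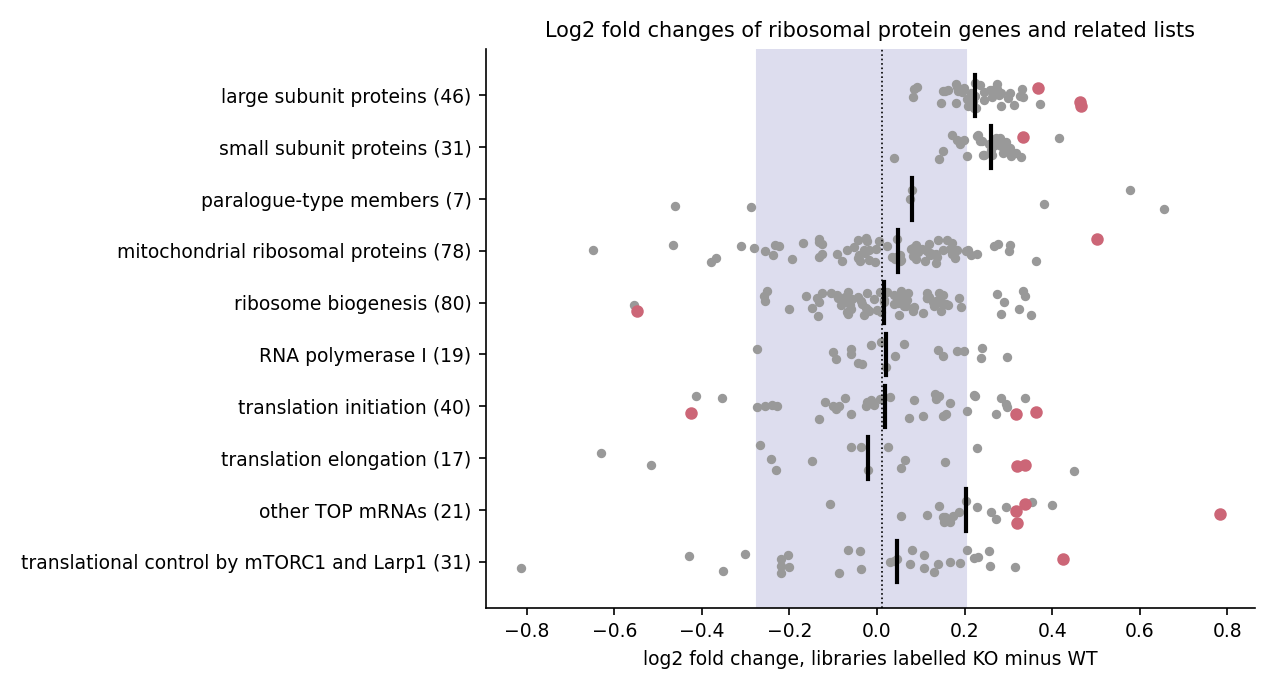
Log2 fold change (libraries labelled KO minus WT) of each tested gene in the members and in 7 related lists, with the number of genes in brackets, called genes in red, list medians as black bars, and the median and quartiles of all genes as a dotted line and shaded band. The 2 subunits and the other TOP mRNAs lie to the right of 0, with medians of 0.22, 0.26 and 0.20, the 7 paralogue-type members scatter around 0.08, and the other 6 lists centre between -0.02 and 0.05.

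The genes for making ribosomes had list medians close to that of all genes, and their difference from the members was not tested. Calls in these and the following lists are to be read against 4.55% of all genes called higher and 4.81% lower. With the block these shares were 7.96% and 12.8%, and at an unadjusted p under 0.05 they were 13% and 15.3%. DESeq2 called 855 of 12234 genes higher and 1391 lower. Of 80 ribosome biogenesis genes none was higher (7 at an unadjusted p under 0.05, 3 by DESeq2, 4 with the block), 1 was lower and the median log2 fold change was 0.02. The one that fell was Pno1, which acts in small-subunit maturation, at 29.6, 27.5 and 28.5 CPM against 18.6, 17.2 and 22.7 CPM (log2 fold change -0.55, adjusted p = 0.0441). Tcof1 and Nop53, which act in rRNA synthesis and large-subunit assembly, gave 0.34 and 0.33 (adjusted p = 0.0509 and 0.0523, and 0.0116 and 0.0183 with the block). Of 19 tested genes of RNA polymerase I, which transcribes rRNA, none was called in either direction (1 at an unadjusted p under 0.05, 1 by DESeq2 and 1 with the block), with a median of 0.02. Of 78 mitochondrial ribosomal protein genes, Mrps16 was higher (0.50, adjusted p = 0.0439), none was lower (3 at an unadjusted p under 0.05, 1 by DESeq2 and 1 with the block), and the median was 0.05.

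Among 40 translation initiation genes, the subunits of the eIF3 complex Eif3k and Eif3h rose and Eif4e fell, with a list median of 0.02. The 2 that rose are 5% of the list, near the 4.55% of all genes, and 4.81% of all genes fell. With the block, 5 were higher (12.5%, against 7.96% of all genes) and 2 lower (12.8% of all genes). Eif3k measured 112, 125 and 107 CPM against 145, 140 and 158 CPM (log2 fold change 0.36, adjusted p = 0.0421). Eif4e, the protein that binds the mRNA cap, measured 68.6, 62.6 and 65.2 CPM against 46.5, 48.3 and 51.5 CPM. It was lower in all 3 libraries labelled KO without overlap (log2 fold change -0.42, adjusted p = 0.0258). The elongation list of 17 had a median of -0.02, with Eef2 and Eef1b2 as its 2 called genes.

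Of 31 tested genes of mTORC1, Larp1 and the Myc network, Mxd4, which opposes Myc, was the one called (log2 fold change 0.42, adjusted p = 0.0344), and the list median was 0.05. Of 24 p53 targets, Ddit4, an inhibitor of mTORC1 that is induced by stress, measured 26.0, 24.2 and 21.7 CPM against 57.8, 59.9 and 59.2 CPM. It was the called gene that rose, by 1.30 on the log2 scale (adjusted p = 4.32e-04). Pmaip1, which promotes cell death, fell by 0.70 on the log2 scale (adjusted p = 0.0254). Cdkn1a, the cell cycle inhibitor p21, gave -1.25 without passing (adjusted p = 0.0679), and passed with the block (2.21e-04), with which 3 targets were lower. The list median was -0.05, with 12 genes on each side of 0. The called gene that rose is 4.17% of the list, against 4.55% of all genes. Of all genes 4.81% were called lower, and 12.8% with the block.

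Of 10 genes for chaperones of single ribosomal proteins and their relatives, Nap1l1 was the called one, and the list median was -0.02. Among the called genes of all these lists, Nap1l1 and Ddit4 were past the threshold in every alternative run. The other 9 kept their direction and lost the call in 4 (Pmaip1) to 13 (Eef1b2 and Eif3h) of 18 alternatives, and Eef2 lost it in 12. Their largest adjusted p-values were from 0.109 for Pmaip1 to 0.207 for Eef2, each with libraries left out. For Eef1b2, Eif3h and Eef2 the call was also lost with all libraries kept, under other scalings, no filter or log2 TPM.

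The genes outside the members whose levels followed the members' median profile most closely over the 6 libraries were Mmgt2 (r = 0.990), Zfp622 (r = 0.988) and Pdk2 (r = 0.984). Their log2 fold changes of 0.42, 0.17 and 0.30 did not pass the test (adjusted p = 0.128, 0.213 and 0.222). Each is a description over the 6 libraries, from which the members' values also come.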

How the data were processed

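Poly(A) RNA from 6 libraries of mouse splenic B cells, 3 per label, was read from both ends on a BGISEQ-500 instrument, per the labels' protocols. The authors deposited estimated counts per gene and per transcript without scaling to depth, beside TPM (per length, with a fixed sum) and FPKM (per length and depth), per the file headers. RSEM 1.3.1, HISAT2 2.0.4, Bowtie2 2.2.5 and the mm10 build are listed without roles in the submitters' processing notes. Of the gene values 5.87% were not whole, among them those of 26 members, so reads shared with near-identical copies were split by estimation. Another 18 columns of values per library were not used. The protocols state no step that marks strand, so antisense reads cannot be separated.

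Counts were rounded to whole numbers and tested in R 4.3.3 with edgeR 4.0.16 (filterByExpr by group, TMM factors, robust quasi-likelihood F-test on the label, Benjamini-Hochberg adjustment over all tested genes or transcripts, threshold 0.05). Adjusted p-values of genes come from this test, and SE from its F statistic. "Called" means past this threshold. Correlations used log2(CPM + 0.5). Single values per library were compared by exact two-sided permutation tests. The procedure was tested on simulated counts with the same dispersion for every gene and changes larger than the members' median. That simulation cannot show how well changes as small as the members' are found. Alternatives were DESeq2 1.42.0, limma 3.58.1 on log2(TPM + 1), other scalings and filters, and left-out libraries.

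Both groups are numbered 1 to 3 in the labels. Deviations from group means over all tested genes correlated at r = 0.156, 0.408 and 0.197 between same-numbered libraries, all above 0.1, so a second fit took the number as a block. Among the members r was -0.42, -0.08 and 0.01. The pairing comes from the data, not from a stated litter or day. Counts of replicates differed by more than sampling noise (chi-square per degree of freedom 11.8 to 45.8), so each library was counted separately. Reads carry no molecular identifiers, so floors cover counting error only.

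All 87 members matched the RefSeq table (GRCm38.p6). The members, the lists and the markers were chosen with earlier results of these data known. Named members are those called, the 6 of smallest p, the 3 largest changes each way, the 5 highest and 3 lowest by TPM, the stalk, members with outside roles and paralogue pairs; up to 3 genes of smallest p were taken per related list. Genes said to be named after their values were seen are exceptions. A result for 1 gene of a related list is not reported here.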

Additional observations from a re-analysis of the deposited data

How the results depend on the processing

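The median log2 fold change of the members stayed above 0 in each alternative, with 0.12 as its lowest value (WT replicate 1 and KO replicate 3 left out together) and 0.16 to 0.32 with each library left out in turn. The number of members called higher, 4, depended on the choices. It was 8 with upper-quartile factors (6.3% of all genes were then higher), 2 with library totals alone (4.13%) and 2 with no filter on low counts (2.93%). DESeq2 gave 25 (7.0%) and the replicate block 18 (7.96%). With WT replicate 1 and KO replicate 3 left out together it was 1 (Rpl38, 2.77%). It was also 1 on log2(TPM + 1) and on log2(TPM + 0.1) (Rpl12 in both, 3.29% and 3.38%). With each library left out in turn it was 0 to 27 (1.34% to 6.62%). Members lower were 1 with the replicate block (12.8% of all genes) and 0 to 1 with each library left out (95 to 1200 of all genes). Member transcripts called were 20 with DESeq2 (8.45% of all transcripts) and 0 otherwise. Estimated counts left unrounded and a filter at a mean of 10 CPM gave 4 members higher (4.52% and 5.68% of all genes). RLE factors or TMM factors computed without the members gave 3 (4.32% and 4.41%). The difference in the share of counts was 0.703 to 1.30 percentage points with each library left out, and an exact sign-flip test over the replicate block gave p = 0.25, the smallest that 3 pairs allow. Signs turned for members near 0: the log2 fold change of Rpl36al was -0.0083, of Rpl37rt -0.011 and of Rps2 -0.036 without WT replicate 1 and KO replicate 3. With each library left out in turn it was -0.0012 to 0.13 for Rpl36al and -0.0072 to 0.11 for Rps2, below 0 without KO replicate 3. Rps27rt, with few counts, gave -0.40 on log2(TPM + 1) and -1.41 on log2(TPM + 0.1), settings added for single genes after the data were seen. The causes were not tested. Beyond the values given beside the results, the replicate block changed no call among the named members. Scalings moved the median of all genes to between -0.01 and 0.06. Of all named genes in the alternatives, 1023 values kept their direction and side of the threshold, 106 lost and 65 gained the call, and 7 turned. Genes not called in the main test had no call to lose, so the 1023 do not measure how stable the calls were. The precision for single members is limited by 3 libraries per label, and markers of several cell types moved with the labels.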
